A study of Mus musculus with 45 samples.

Results

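Collagens, the metalloproteinases that cut the extracellular matrix and the inhibitors of those enzymes were followed in mouse liver as a single set of 80 genes, out of the 18180 genes measured. The members were chosen by symbol alone: 42 numbered collagen chains (Col), 19 matrix metalloproteinases (Mmp), 15 members of the Adamts family and the 4 tissue inhibitors of metalloproteinases (Timp). Livers came from male C57Bl/6J mice of 8 weeks, in 9 groups of 5 mice, with 1 array for each mouse. Mice in 4 groups received acetaminophen (APAP) by oral gavage at 300 mg/kg and were killed 3, 6, 9 or 24 h later, and those in 4 more groups received the vehicle, 1% hydroxyethylcellulose, with the same times. The remaining group was untreated and was killed at 0 h. All mice were fasted for 16 h beforehand, and food was given back after dosing. Every mouse was killed at a single time, so differences between times are differences between mice.

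Collagens form the fibrils, networks and basement membranes that hold a tissue together. In liver they are made mainly by hepatic stellate cells, portal fibroblasts and endothelial cells. MMPs and ADAMTS proteases cleave collagens, proteoglycans and other matrix proteins, and TIMPs block the MMPs and some ADAMTS enzymes. After an injury the balance of the enzymes and their inhibitors sets how matrix is removed and laid down, and a macrophage elastase (Mmp12) and a collagenase (Mmp13) are well known from the clearing of scar in mouse liver.

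Values are log2 expression values, and a difference of 1 on this scale is a 2-fold change. A gene is described as higher or lower, or as having changed, where limma gave an adjusted p under 0.05 over all 18180 genes together with a change of at least 1.5-fold. Markers of hepatocytes were as strong as the tissue label asks, with a mean over 9 markers of 13.74 to 14.08 on the 45 arrays, whose medians lay between 7.59 and 7.66. Of the 80 members, 24 lay below the lower quartile of the array (6.23 to 6.43) on all 45 arrays. No detection call was used, so for such dim genes a small change on this scale may understate the true one. Among the APAP mice of 24 h, replicates 1 and 3 stood apart: their monocyte and macrophage markers averaged 10.23 and 10.34, against 9.43 to 9.53 in the other 3 mice of that group. Replicate 1 also had the lowest hepatocyte marker level of the group, 13.74 against 13.90 to 13.95, and calls at 24 h that these mice change are given without them.

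The changes were narrow and staggered in time. Against vehicle, 3, 7, 6 and 6 members changed at the 4 times, in order. These are 3.75%, 8.75%, 7.5% and 7.5% of the 80 members, whereas 4.03%, 5.32%, 4.54% and 4.68% of all genes were called at those times. The member shares stayed within 4 percentage points of the background, so the counts alone set the family little apart from other genes. Over the 4 times, 12 members changed: 7 were higher after APAP (Adamts1, Adamts4, Mmp12, Mmp13, Col4a1, Col4a2 and Col13a1) and 5 were lower (Col3a1, Col5a3, Col27a1, Mmp15 and Adamts7). By time, 2, 3, 3 and 4 members were higher, beside 1.68%, 2.29%, 2.49% and 2.86% of all genes, and 1, 4, 3 and 2 were lower, beside 2.34%, 3.03%, 2.05% and 1.82%. The APAP and vehicle groups did not overlap for 8, 10, 17 and 18 members, with 16.1%, 21.5%, 21.2% and 20.3% of all genes likewise apart. Median log2 differences of all 80 members were 0.03, 0.02, -0.05 and -0.10 at 3, 6, 9 and 24 h, beside 0.02, 0.01, -0.03 and -0.05 for all genes. The livers are whole tissue, in which fewer cells of a type and less RNA per cell cannot be told apart.

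**Figure D1:**
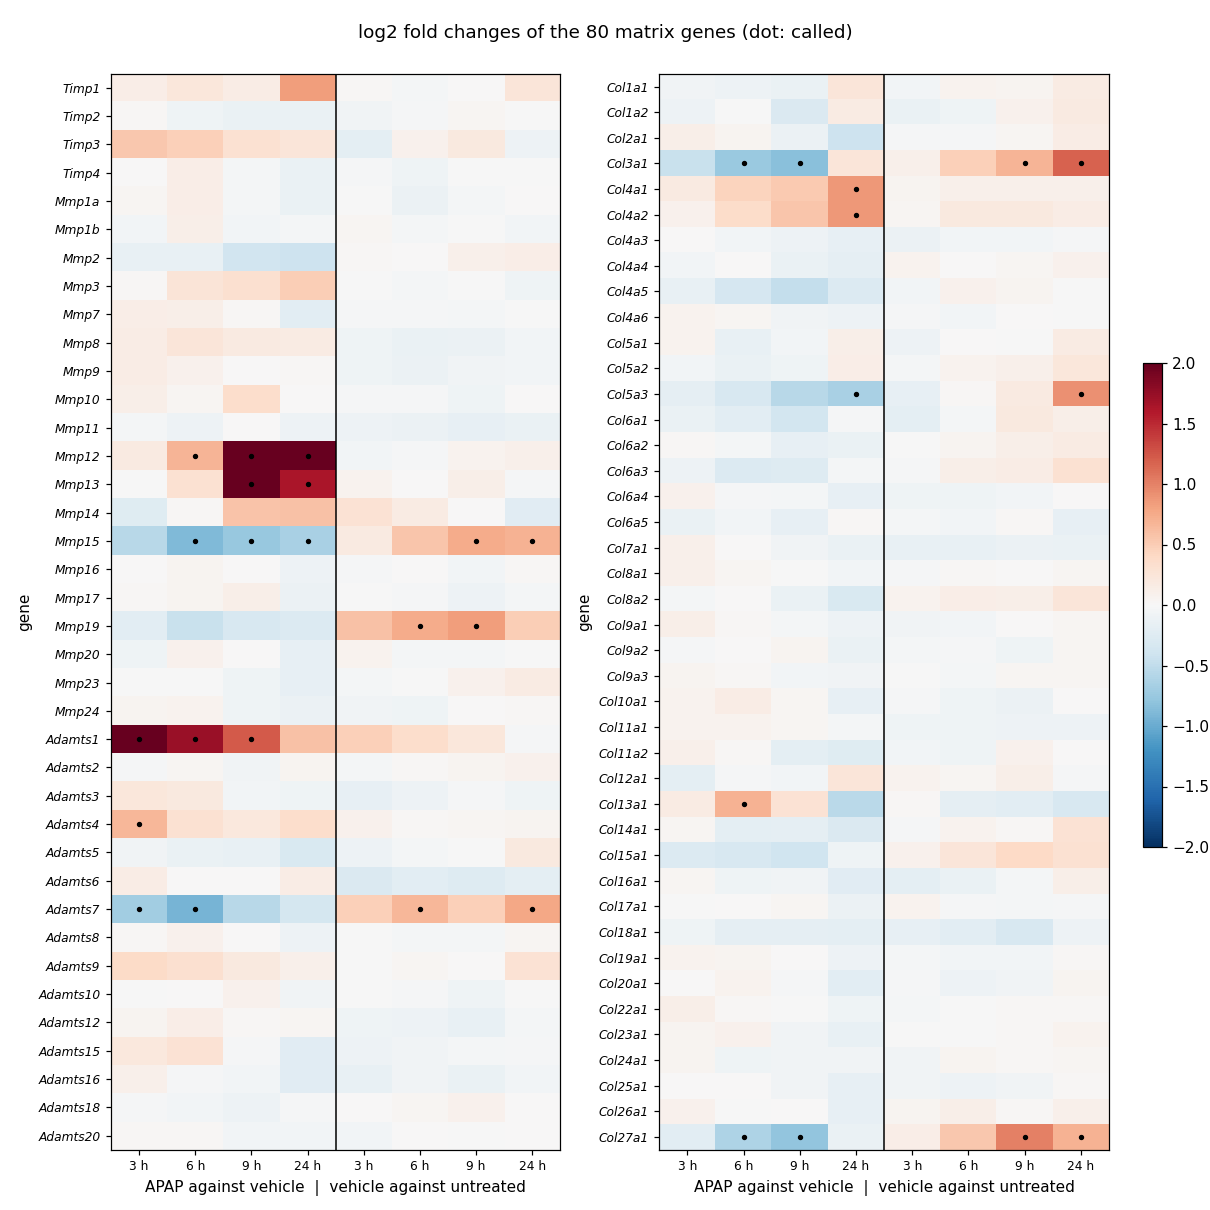
Colour shows the log2 fold change of each of the 80 members (rows, grouped by family) in the 4 comparisons of APAP with vehicle and the 4 comparisons of vehicle with untreated mice (columns, by time in h), with n = 5 mice per group and a dot where the gene was called. Most rows are pale throughout, and the deepest colours are those of Mmp12, Mmp13 and Adamts1, whose largest log2 fold changes against vehicle were 3.04, 2.32 and 2.10.

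Among the ADAMTS proteases, the earliest change was in Adamts1 (Entrez gene 11504), which cleaves the proteoglycans versican and aggrecan. At 3 h its log2 values were 10.73, 10.46, 10.84, 10.55 and 10.15 in APAP mice, against 8.47, 8.14, 8.26, 8.58 and 8.79 in vehicle mice. Every APAP mouse was thus above every vehicle mouse, and the mean was 4.29-fold higher (log2 fold change 2.10, standard error 0.14, limma adjusted p = 6.8e-07, n = 5 mice each). The excess narrowed with time. It was 1.73 (standard error 0.23, limma adjusted p = 0.000279) at 6 h and 1.23 (standard error 0.16, limma adjusted p = 0.000186) at 9 h, with no overlap of the groups at either time. At 24 h Adamts1 averaged 8.53 ± 0.57 in APAP mice and 7.94 ± 0.27 in vehicle mice (SD, n = 5 each). That difference of 0.59 did not pass (limma adjusted p = 0.0847), and without APAP replicate 1, whose value was 9.49, it was 0.35. The APAP effect on Adamts1 was smaller at 24 h than at 3 h when the difference itself was tested (-1.51 on the log2 scale, limma adjusted p = 0.000315). Against 9 h the change in effect was -0.64 (limma adjusted p = 0.185), and -0.99 (limma adjusted p = 0.0215) without APAP replicates 1 and 3 of 24 h. Those replicates held the highest Adamts1 values of their group (9.49 and 8.64). Leaving them out therefore lowers the 24 h effect, and that fit cannot decide whether the effects differ.

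Adamts4 (Entrez gene 240913), another proteoglycan-cleaving enzyme and known as aggrecanase-1, changed only at 3 h among the 4 times. There its log2 values were 6.13, 6.45, 6.12, 6.43 and 6.33 in APAP mice, against 5.57, 5.73, 5.59, 5.63 and 5.64 in vehicle mice. The groups did not overlap, and the log2 fold change was 0.66 (standard error 0.07, limma adjusted p = 4.12e-05). Most Adamts4 values, on 41 of 45 arrays, lay below the array's lower quartile. At 24 h replicate 1 of the APAP mice read 6.73 and replicate 3 read 6.11, while the other 3 mice read 5.59 to 5.67, inside the vehicle range of 5.43 to 5.70. The remaining members of the same enzyme group, Adamts5, Adamts8, Adamts9, Adamts15 and Adamts20, passed at no time.

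Adamts7 (Entrez gene 108153), which cleaves cartilage oligomeric matrix protein, moved the other way. At 6 h its values were 6.04, 6.32, 6.36, 6.20 and 6.08 in APAP mice, against 7.08, 7.02, 6.99, 7.38 and 7.19 in vehicle mice. The groups did not overlap, and APAP mice were lower by a log2 fold change of -0.93 (standard error 0.09, limma adjusted p = 3.44e-05). At 3 h the log2 fold change was -0.70 (limma adjusted p = 0.00252), which became -0.58, under the 1.5-fold minimum, without replicate 2 of the vehicle mice. Differences of -0.56 at 9 h and -0.35 at 24 h were under that minimum. Untreated mice had 6.23 to 6.71, so the APAP values of 6 h lay at the low end of the untreated range or below it.

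Mmp12 and Mmp13 lie beside each other in a run of 9 MMP genes on mouse chromosome 9: Mmp13, Mmp12, Mmp1b, Mmp3, Mmp1a, Mmp10, Mmp8, Mmp20 and Mmp7. Promoter windows of their RefSeq genes (build GRCm38.p6, 250 bases before to 50 bases after the annotated start) are shown. These neighbours were both higher after APAP at 9 and 24 h, though their highest means fell at different times. Each window shown holds the AP-1 motif TGACTCA, in capitals, which reads TGAGTCA where it lies on the opposite strand. The Mmp13 window is chr9:7272264-7272563 and the Mmp12 window chr9:7347124-7347423, both on the plus strand. Mmp12 has a further annotated start, whose window lacks these letters.
Mmp13 promoter: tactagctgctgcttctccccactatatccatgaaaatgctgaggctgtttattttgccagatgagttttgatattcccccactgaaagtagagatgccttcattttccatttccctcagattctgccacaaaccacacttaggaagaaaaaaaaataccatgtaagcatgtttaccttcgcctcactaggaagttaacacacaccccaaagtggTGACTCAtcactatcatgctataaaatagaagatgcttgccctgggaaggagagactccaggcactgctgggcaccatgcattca
Mmp12 promoter: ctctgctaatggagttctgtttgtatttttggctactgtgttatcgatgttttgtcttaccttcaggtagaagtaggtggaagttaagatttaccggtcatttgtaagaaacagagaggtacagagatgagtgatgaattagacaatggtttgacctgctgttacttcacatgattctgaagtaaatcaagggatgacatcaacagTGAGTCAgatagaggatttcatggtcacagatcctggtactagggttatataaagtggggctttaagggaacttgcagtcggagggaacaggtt

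The motif begins 35 bases before the start in Mmp13 and 44 bases before it in Mmp12. On either strand, 8 of the 58 members with a window (13.8%) held TGACTCA, beside 5.95% of 27025 genes. They were Mmp13, Mmp12, Mmp1b, Mmp3, Mmp1a, Mmp10 and Mmp7, which all belong to the same chromosome 9 run, and Col6a1. Only Mmp12 and Mmp13 among the 9 genes of the run passed against vehicle, while the other 7 differed by -0.22 to 0.49 on the log2 scale at 24 h. The letters TGACGTCA (the CRE motif) were found in 1 member, Col24a1, or 1.72% of those with a window, beside 2.03% of all genes.

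Mmp12 (Entrez gene 17381), the macrophage metalloelastase, gave the largest change of the 80 members. At 24 h its log2 values were 9.61, 7.72, 8.81, 6.25 and 6.74 in APAP mice, against 4.78, 4.69, 4.89, 4.79 and 4.78 in vehicle mice. All 5 APAP mice were far above all vehicle mice, but they spread over more than 3 log2 units among themselves. The mean was 8.23-fold higher (log2 fold change 3.04, standard error 0.53, limma adjusted p = 0.00326), and leaving out any single array kept it between 2.60 and 3.43. At 9 h the values were 7.05, 7.25, 8.21, 6.10 and 5.89 in APAP mice, against 4.78, 4.81, 4.74, 4.67 and 4.80 in vehicle mice. This was a log2 fold change of 2.14 (standard error 0.34, limma adjusted p = 0.000667) without overlap. At 6 h it was 0.67 (standard error 0.18, limma adjusted p = 0.0156), with 1 APAP mouse inside the vehicle range, and without APAP replicate 2 or 3 it was 0.55 or 0.58, under the 1.5-fold minimum. The 6 h call was also lost in 1 model over all 45 arrays (standard error 0.35, limma adjusted p = 0.161). The effect of 24 h exceeded that of 3 h by 2.86 on the log2 scale (standard error 0.53, limma adjusted p = 7.56e-05). Untreated mice read 4.51 to 4.83, like the vehicle groups.

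Mmp13 (Entrez gene 17386), the main collagenase for fibrillar collagen in mice, had its highest mean earlier, at 9 h. At 9 h its values were 6.48, 6.92, 7.57, 5.91 and 6.47 in APAP mice, against 4.26, 4.49, 4.23, 4.33 and 4.43 in vehicle mice. The groups lay well apart, with a 5.01-fold higher mean (log2 fold change 2.32, standard error 0.23, limma adjusted p = 2.93e-05). At 24 h the values were 7.51, 5.20, 6.28, 5.41 and 4.73 in APAP mice, against 4.31, 4.12, 4.18, 4.28 and 4.12 in vehicle mice. Again no APAP mouse reached into the vehicle range, though replicate 5 came close to it, and the log2 fold change was 1.63 (standard error 0.42, limma adjusted p = 0.0172). At 3 h the difference was -0.01. The effect at 24 h was not shown to differ from that at 9 h for Mmp12 (0.90, limma adjusted p = 0.275). For Mmp13 it was -0.70 relative to 9 h (limma adjusted p = 0.26), which did not pass. The difference passed at -1.23 (limma adjusted p = 0.00476) with array weights. It also passed at -1.41 (limma adjusted p = 0.000315) without APAP replicates 1 and 3 of 24 h. Those replicates held the highest Mmp13 values of their group (7.51 and 6.28). Leaving them out therefore lowers the 24 h effect, and that fit cannot decide whether the effects differ. Both genes were dim, below the lower quartile on 38 of 45 arrays (Mmp12) and 39 of 45 (Mmp13), so the size of their changes is less sure than their direction.

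Markers of monocytes and infiltrating macrophages had higher means than in vehicle mice at 6, 9 and 24 h. Mmp12 was called at each of these times and Mmp13 at 9 and 24 h. At 6 h the marker mean over 10 genes ran from 8.368 to 8.76 in APAP mice, against 8.165 to 8.359 in vehicle mice. Cd68 was the only marker higher at 6 h, by 0.59 on the log2 scale, when 2.29% of all genes were higher. The marker mean ran from 8.64 to 9.32 in APAP mice of 9 h, against 8.19 to 8.37 in vehicle mice. At 24 h it ran from 9.43 to 10.34 in APAP mice, against 8.18 to 8.30 in vehicle mice. The marker means were thus highest at 24 h, like the mean of Mmp12, whereas the mean of Mmp13 was highest at 9 h. At 9 h 4 of the 10 markers were higher and at 24 h 6 of 10, beside 2.49% and 2.86% of all genes, and none was lower. Cx3cr1 lay below the lower quartile on every array. Chil3, a chitinase-like protein of macrophages, was higher by 5.39, the galectin Lgals3 by 3.50 and the lysosomal protein Cd68 by 1.73 on the log2 scale at 24 h. The part of these cells in the values of Mmp12 and Mmp13 was not tested. Without APAP replicates 1 and 3, Mmp12 and Mmp13 were the 2 members still called at 24 h.

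**Figure D2:**
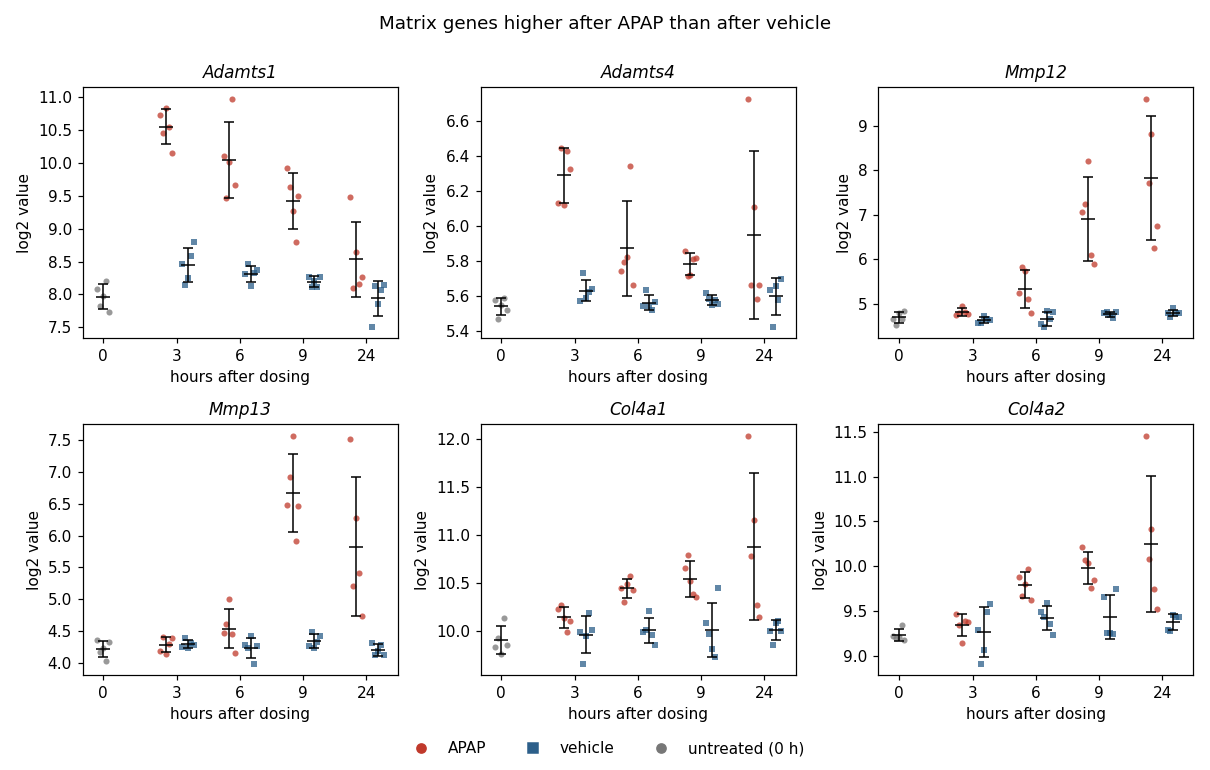
Log2 values of 6 members in single mice (points), with the mean and SD of each group of 5 (bars), by hours after dosing, for APAP (circles, left of each pair), vehicle (squares) and untreated mice (0 h). APAP values of Adamts1 and Adamts4 had their highest means at 3 h, though not their highest single values. Those of Mmp12, Col4a1 and Col4a2 had their highest means at 24 h (7.83, 10.88 and 10.25) and those of Mmp13 at 9 h (6.67).

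Of the other collagenases, Mmp8, made by neutrophils, passed at no time, with 7.34 ± 0.34 in APAP mice and 7.17 ± 0.09 in vehicle mice (SD, n = 5 each) at 24 h. Neutrophil markers averaged 7.60 to 8.67 in APAP mice and 7.43 to 7.70 in vehicle mice at that time, and S100a8 and S100a9 were the 2 of 10 that were higher. Mmp8 is itself 1 of these 10 markers, so their average is not independent of it. The gelatinases cut denatured collagen and basement membrane collagen. Mmp9, a gelatinase of leukocytes, differed by 0.03 on the log2 scale at 24 h (limma adjusted p = 0.74). Mmp2, a gelatinase of stellate cells and fibroblasts, was 7.14, 7.30, 7.13, 7.30 and 7.31 in APAP mice, against 7.68, 7.67, 7.58, 7.66 and 7.67 in vehicle mice at 24 h. These groups were apart, yet the difference of -0.41 (standard error 0.05, limma adjusted p = 0.000652) was less than 1.5-fold, as was the difference of -0.38 at 9 h. For the stromelysin Mmp3 the difference of 0.49 at 24 h did not pass (limma adjusted p = 0.0971).

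Membrane-type MMPs are anchored in the cell surface, where Mmp14 cuts collagen and activates the proenzyme of Mmp2. Mmp14 (Entrez gene 17387) had log2 values of 9.97, 9.09, 9.41, 9.17 and 9.14 in APAP mice, against 8.69, 8.81, 8.83, 8.75 and 8.77 in vehicle mice at 24 h. The groups did not overlap and the difference of 0.58 (standard error 0.14, limma adjusted p = 0.0143) stopped just short of 1.5-fold, as did 0.57 at 9 h (limma adjusted p = 0.000391). At 3 h the difference was -0.24 (limma adjusted p = 0.011). The change in the effect between 3 h and 24 h, 0.82 (standard error 0.15, limma adjusted p = 7.46e-05), did pass. Leaving out single arrays moved the 24 h difference from 0.43, without APAP replicate 1, to 0.65, without APAP replicate 2, and 6 of those 10 fits called Mmp14.

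Mmp15 (Entrez gene 17388), another membrane-type enzyme, was lower after APAP. At 6 h its values were 8.01, 8.04, 8.02, 8.23 and 8.04 in APAP mice, against 8.94, 8.93, 8.61, 9.10 and 9.17 in vehicle mice. No values overlapped, and the log2 fold change was -0.88 (standard error 0.09, limma adjusted p = 7.81e-05). It was -0.75 (limma adjusted p = 0.00159) at 9 h and -0.64 (limma adjusted p = 0.00551) at 24 h, again with separate groups, and -0.55 at 3 h, under the fold minimum. Without APAP replicate 1, the difference of 24 h was -0.53 and no longer reached 1.5-fold, and without replicates 1 and 3 it was -0.45. Untreated mice ranged from 8.13 to 8.58, a range that also held 2 of the 5 APAP values of 24 h. Mmp16, Mmp17 and Mmp24 passed at no time.

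None of the 4 TIMPs passed against vehicle at any time. Timp1 (Entrez gene 21857), the inhibitor most often linked to liver injury, showed 9.15, 7.25, 7.28, 6.88 and 6.55 in APAP mice, against 6.57, 6.67, 6.44, 6.63 and 6.60 in vehicle mice at 24 h. A single mouse, replicate 1, was far above the rest, 3 more were above all vehicle mice and replicate 5 was inside the vehicle range. The log2 fold change was 0.84 with a standard error of 0.39 (limma adjusted p = 0.116). Without replicate 1 it was 0.41 (standard error 0.13, limma adjusted p = 0.0469), which is under 1.5-fold. Timp3 (Entrez gene 21859), the TIMP that binds to the matrix and inhibits Adamts4, was 8.58, 8.30, 8.42, 8.50 and 8.42 in APAP mice, against 7.88, 7.68, 8.11, 8.00 and 7.88 in vehicle mice at 3 h. The groups were separate and the difference of 0.53 (standard error 0.08, limma adjusted p = 0.000454) was less than 1.5-fold. Timp2 differed by -0.14 to 0.02 and Timp4 by -0.13 to 0.13 over the 4 times, with limma adjusted p values from 0.0691 upward.

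Type IV collagen is the network of basement membranes, and its major form holds chains of Col4a1 and Col4a2. These genes stand head to head on mouse chromosome 8, and their RefSeq promoter windows (build GRCm38.p6) are given because they share sequence: 78 bases, in capitals, lie in both windows on opposite strands. Col4a1 is on the minus strand at chr8:11312777-11313076 and Col4a2 on the plus strand at chr8:11312555-11312854.
Col4a1 promoter: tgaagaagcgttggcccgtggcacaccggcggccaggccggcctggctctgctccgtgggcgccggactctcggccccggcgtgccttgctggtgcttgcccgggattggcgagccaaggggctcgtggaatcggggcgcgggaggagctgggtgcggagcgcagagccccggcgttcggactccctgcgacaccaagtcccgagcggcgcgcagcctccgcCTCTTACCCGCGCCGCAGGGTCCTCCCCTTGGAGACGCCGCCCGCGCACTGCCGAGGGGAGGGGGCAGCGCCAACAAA
Col4a2 promoter: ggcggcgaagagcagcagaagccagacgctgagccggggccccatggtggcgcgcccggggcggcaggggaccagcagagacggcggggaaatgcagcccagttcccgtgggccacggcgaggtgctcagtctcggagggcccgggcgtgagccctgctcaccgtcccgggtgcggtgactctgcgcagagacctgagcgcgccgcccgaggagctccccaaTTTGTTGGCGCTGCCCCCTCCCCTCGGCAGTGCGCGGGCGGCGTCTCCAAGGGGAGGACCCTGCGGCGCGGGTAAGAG

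Col4a1 (Entrez gene 12826) and Col4a2 (Entrez gene 12827) moved side by side. At 24 h Col4a1 was 12.04, 10.79, 11.16, 10.27 and 10.14 in APAP mice, against 9.998, 9.850, 10.088, 10.106 and 10.003 in vehicle mice. Col4a2 was 11.46, 10.08, 10.42, 9.74 and 9.53 in the same APAP mice, against 9.29, 9.28, 9.46, 9.44 and 9.44 in vehicle mice. Every APAP mouse was above every vehicle mouse for both genes, replicate 1 was highest and replicates 4 and 5 were close to the vehicle range. Log2 fold changes were 0.87 for each (limma adjusted p = 0.0461 for Col4a1 and 0.0448 for Col4a2). Both calls were fragile: Col4a1 kept its call in 2 of 10 fits that left out 1 array and Col4a2 in 3 of 10, with log2 fold changes down to 0.58 and 0.56 without APAP replicate 1. Without replicates 1 and 3 they were 0.39 and 0.41.

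Smaller differences of the same sign stood at earlier times. At 6 h Col4a1 was 10.45 ± 0.10 in APAP mice and 10.01 ± 0.13 in vehicle mice (SD, n = 5 each), a difference of 0.44 (limma adjusted p = 0.000789). At 9 h it was 0.53 (limma adjusted p = 0.00842), and for Col4a2 the differences were 0.37 (limma adjusted p = 0.0063) and 0.55 (limma adjusted p = 0.0039). All 4 were under 1.5-fold. The effect of 24 h exceeded that of 3 h by 0.69 for Col4a1 (limma adjusted p = 0.039) and 0.79 for Col4a2 (limma adjusted p = 0.0206). Without APAP replicates 1 and 3 of 24 h these fell to 0.21 (limma adjusted p = 0.369) and 0.33 (limma adjusted p = 0.158), and with array weights they were 0.27 and 0.45, neither of which passed. Leaving out single arrays ended the Col4a1 call in 11 of 20 fits and the Col4a2 call in 1, with 0.40 and 0.49 without APAP replicate 1. Of the 4 other type IV chains, found in more specialised basement membranes, none passed. Nid1, a nidogen that links type IV collagen to laminin, was higher by 1.10 at 9 h and 1.48 at 24 h. Endothelial markers averaged 9.659 to 9.796 in APAP mice of 3 h, against 9.549 to 9.655 in vehicle mice, when neither Col4a1 nor Col4a2 was called. At 6 h they averaged 9.67 to 9.84 in APAP mice, against 9.49 to 9.82 in vehicle mice. At 9 h they were apart, at 9.79 to 9.88 in APAP mice and 9.50 to 9.58 in vehicle mice, and at 24 h they ran from 9.26 to 9.82 in APAP mice, against 9.35 to 9.46 in vehicle mice. Lyve1 was the only 1 of 9 that was higher at these times, by 0.79, 1.23, 1.70 and 1.32 at 3, 6, 9 and 24 h. The part of endothelial cells in the type IV values was not tested.

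**Figure D3:**
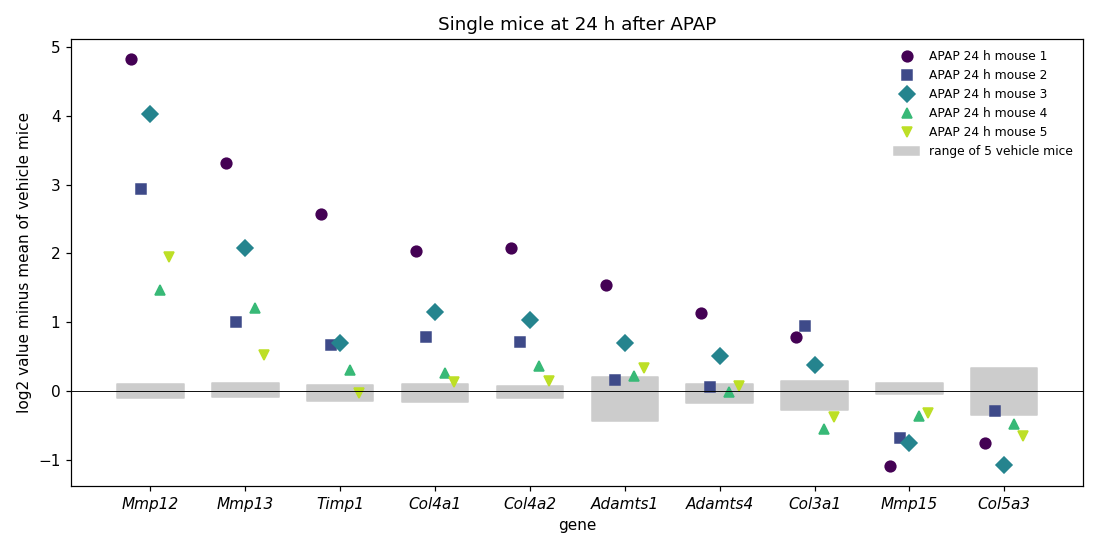
Log2 value of each APAP mouse at 24 h minus the mean of the 5 vehicle mice of 24 h (vertical axis) for 10 members (horizontal axis), with the range of the vehicle mice in grey. APAP mouse 1 was the highest of its group for Mmp12, Mmp13, Timp1, Col4a1, Col4a2, Adamts1 and Adamts4, with Timp1 at 9.15 against 6.55 to 7.28 in the other 4.

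Fibrillar collagens form the bulk of scar tissue. Of the 11 measured, Col3a1 and Col27a1 were lower after APAP than after vehicle at 6 and 9 h, and Col5a3 at 24 h. Of all genes, 3.03%, 2.05% and 1.82% were lower at 6, 9 and 24 h. Col3a1 (Entrez gene 12825), the chain of type III collagen, was 7.19, 7.68, 7.61, 7.35 and 7.03 in APAP mice, against 7.90, 8.49, 7.88, 7.93 and 8.87 in vehicle mice at 9 h. The groups did not overlap, and the log2 fold change was -0.84 (standard error 0.19, limma adjusted p = 0.00639). At 6 h it was -0.74 (standard error 0.20, limma adjusted p = 0.0191), which became -0.57 without vehicle replicate 3. At 24 h Col3a1 was 9.49, 9.64, 9.08, 8.16 and 8.32 in APAP mice, against 8.76, 8.85, 8.43, 8.82 and 8.65 in vehicle mice. Replicates 1, 2 and 3 were above all vehicle mice and replicates 4 and 5 below them, and the difference of 0.24 did not pass (limma adjusted p = 0.502). The effect at 24 h exceeded that at 9 h by 1.07 (standard error 0.33, limma adjusted p = 0.026). That call was lost without APAP replicates 1 and 3 of 24 h (0.84, limma adjusted p = 0.121), with array weights (0.54, limma adjusted p = 0.199) and in 6 of 20 fits that left out 1 array.

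The same 3 mice led type I collagen, the main fibril of scar, without a call. At 24 h Col1a1 was 7.61 ± 0.32 in APAP mice and 7.36 ± 0.09 in vehicle mice (SD, n = 5 each; limma adjusted p = 0.17). Col1a2 was 8.31 ± 0.38 in APAP mice and 8.14 ± 0.08 in vehicle mice (limma adjusted p = 0.395). Markers of stellate cells averaged 8.51 to 8.79 in APAP mice of 24 h, against 8.52 to 8.68 in vehicle mice, with 1 of 12 higher (Pdgfrb) and 1 lower (Lrat). Markers of myofibroblasts and fibroblasts averaged 7.12 to 7.50, against 7.21 to 7.34, with Tagln the only 1 of 9 that was higher. Gfap and Cnn1 lay below the lower quartile on every array.

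Col27a1 (Entrez gene 373864), a fibrillar collagen of cartilage, was 8.60, 8.89, 9.03, 9.31 and 8.94 in APAP mice, against 9.56, 10.05, 10.03, 9.80 and 9.25 in vehicle mice at 9 h. Only APAP replicate 4 reached above the lowest vehicle mouse, and the log2 fold change was -0.79 (standard error 0.16, limma adjusted p = 0.00289). At 6 h it was -0.62 (limma adjusted p = 0.0214), and -0.55 or -0.52, under the minimum, without vehicle replicate 2 or 5. At 24 h it was -0.13 (limma adjusted p = 0.313), and the effect differed between 24 h and 9 h by 0.66 (limma adjusted p = 0.0339), a call lost in 9 of 20 fits that left out 1 array and without APAP replicates 1 and 3 of 24 h (0.68, limma adjusted p = 0.0506). Col5a3 (Entrez gene 53867), a chain of type V collagen, was 9.60, 10.06, 9.27, 9.88 and 9.69 in APAP mice, against 10.18, 10.69, 10.40, 10.01 and 10.49 in vehicle mice at 24 h. A single APAP mouse, replicate 2, reached into the vehicle range, and the log2 fold change was -0.65 (standard error 0.16, limma adjusted p = 0.0125). It was -0.57 without vehicle replicate 2 and -0.55 without APAP replicate 3, both under 1.5-fold, and -0.48 without APAP replicates 1 and 3.

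A transmembrane collagen, Col13a1 (Entrez gene 12817), had a course of its own. At 6 h it was 8.42, 8.00, 8.18, 8.88 and 8.36 in APAP mice, against 7.74, 7.77, 7.49, 7.78 and 7.58 in vehicle mice. There was no overlap, and the log2 fold change was 0.70 (standard error 0.14, limma adjusted p = 0.00326), or 0.57 without APAP replicate 4. At 24 h it was 7.08, 6.89, 6.87, 7.14 and 6.92 in APAP mice, against 7.81, 7.66, 7.36, 7.52 and 7.25 in vehicle mice. All APAP mice were now below all vehicle mice, by -0.54 on average (limma adjusted p = 0.00499), which is under 1.5-fold. The change in effect passed both against 3 h (-0.71, limma adjusted p = 0.0043) and against 9 h (-0.83, limma adjusted p = 0.0031).

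In the remaining collagen classes no member was called against vehicle at any time. These were the 5 type VI chains, the 9 fibril-associated chains, the 3 network-forming chains, the 2 multiplexins, whose fragments include endostatin, and the 2 others. The members with the lowest p at 24 h in these classes were Col8a2 (log2 fold change -0.31, limma adjusted p = 0.00183), Col20a1 (-0.21), Col6a4 (-0.16), Col18a1 (-0.19) and Col26a1 (-0.17). Among the propeptidases that trim procollagens, Adamts3 had -0.08 (limma adjusted p = 0.383). With no minimum fold, 5 members were higher and 20 lower at 24 h, which is beside 13.4% of all genes higher and 16.1% lower at the same threshold. The median over all 18180 genes was below 0 at that time too, and only 39.6% of them were higher after APAP than after vehicle, beside 30.0% of the members.

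Each of the 5 members that were lower after APAP was also higher in vehicle than in untreated mice in 1 or more comparisons. The times did not always match. Adamts7 was lower after APAP at 3 h, and Col3a1, Col27a1 and Mmp15 at 6 h, when vehicle mice showed no call for them. How many of all genes were called in both ways was not counted, so this overlap has no background. Against untreated mice, 0, 2, 4 and 5 members were higher after vehicle, from the earliest to the latest time, and none was lower. All genes were called at rates of 2%, 2.89%, 3.87% and 4.4%, beside 0, 2.5%, 5% and 6.25% of the members. By direction, 1.14%, 1.71%, 2.03% and 2.31% of all genes were higher and 0.853%, 1.19%, 1.84% and 2.09% lower. At 3 h 11 members had an unadjusted limma p under 0.05, beside 26.1% of all genes, and Mmp19 had the largest difference, 0.58, just under the 1.5-fold minimum. The 4 comparisons share the same 5 untreated mice, and the vehicle mice are also those against which APAP was set, so opposite signs in the 2 kinds of comparison are not independent. Gavage, return of food and time of day cannot be told apart here.

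Col3a1 was 8.76, 8.85, 8.43, 8.82 and 8.65 in vehicle mice of 24 h, against 7.23, 7.48, 7.67, 7.38 and 7.89 in untreated mice. The groups were separate, with a 2.25-fold higher mean after vehicle (log2 fold change 1.17, standard error 0.12, limma adjusted p = 9.29e-06). It was 0.68 at 9 h (limma adjusted p = 0.0181), and 0.52 without vehicle replicate 5. In APAP mice of 6 and 9 h, Col3a1 (7.05 to 7.66 and 7.03 to 7.68) stayed inside or below the untreated range of 7.23 to 7.89. Col27a1 was 9.56, 10.05, 10.03, 9.80 and 9.25 in vehicle mice of 9 h, against 8.60, 8.77, 8.90, 8.68 and 8.75 in untreated mice. No values overlapped, and the log2 fold change was 1.00 (standard error 0.13, limma adjusted p = 0.000148), with 0.70 at 24 h.

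Col5a3 was 10.18, 10.69, 10.40, 10.01 and 10.49 in vehicle mice of 24 h, against 9.33, 9.58, 9.51, 9.31 and 9.44 in untreated mice (log2 fold change 0.92, limma adjusted p = 4.48e-05). Every vehicle mouse was above the untreated mice, and the APAP mice of 24 h, 9.27 to 10.06, reached from inside the untreated range into the vehicle range. Mmp15 was higher than in untreated mice by 0.74 at 9 h and 0.70 at 24 h, and Adamts7 by 0.66 at 6 h and 0.78 at 24 h, all without overlap. Mmp19 (Entrez gene 58223), a soluble MMP that cuts basement membrane proteins, was 8.30, 8.35, 8.28, 8.15 and 8.09 in vehicle mice of 9 h, against 7.19, 7.44, 7.59, 7.37 and 7.38 in untreated mice. The groups were apart by 0.84 (standard error 0.07, limma adjusted p = 5.98e-06), and by 0.74 at 6 h (limma adjusted p = 0.000521). Mmp19 was not called against vehicle at any time, with log2 fold changes of -0.21, -0.44, -0.32 and -0.28 at 3, 6, 9 and 24 h.

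**Figure D4:**
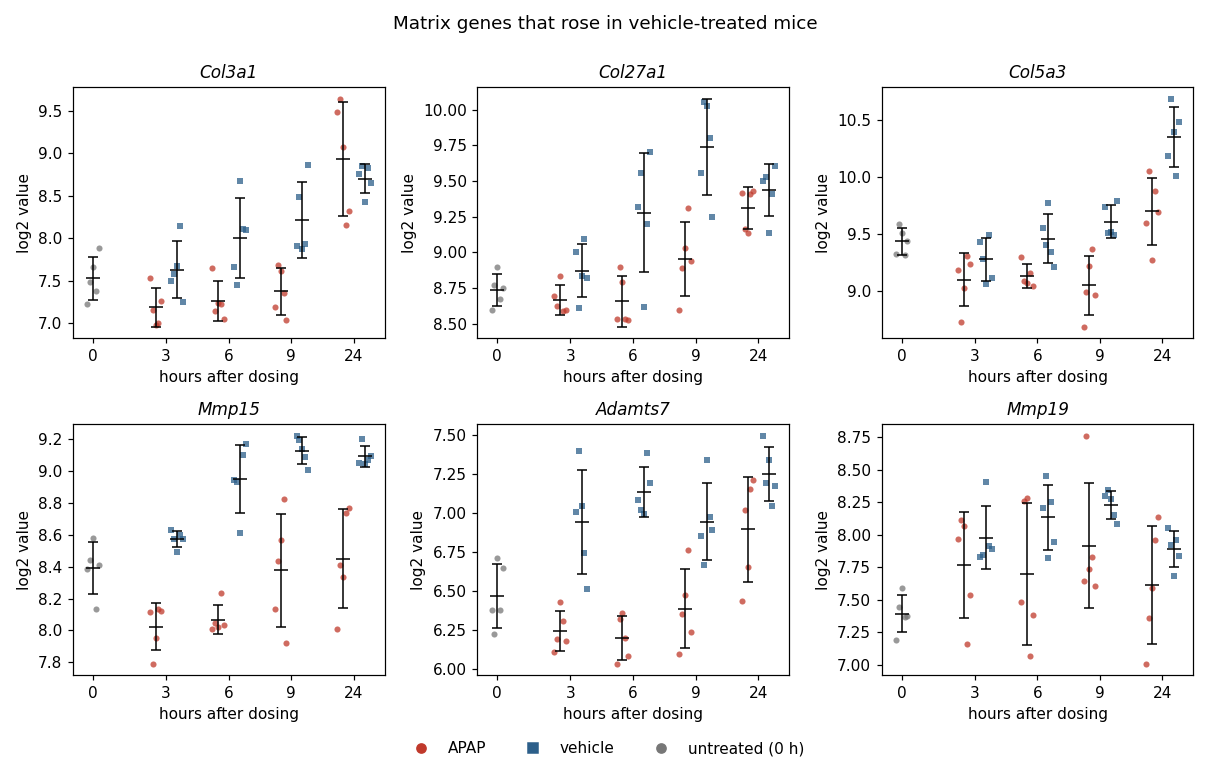
Log2 values of 6 members in single mice (points), with the mean and SD of each group of 5 (bars), by hours after dosing, for APAP (circles, left of each pair), vehicle (squares) and untreated mice (0 h). In vehicle mice these members lay above the untreated mice at later times, as for Mmp15, at 9.04 to 9.20 at 24 h after vehicle against 8.13 to 8.58 untreated.

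Set against each other, the effects of APAP at 24 h and 3 h were unequal for 7 members (8.75%, beside 8.25% of all genes), and those at 24 h and 9 h for 3 (3.75%, beside 2.98%). Mmp12, Mmp13, Mmp14, Col4a1 and Col4a2 had a higher log2 difference from vehicle at 24 h than at 3 h, and Adamts1 and Col13a1 a lower one, beside 6.03% and 2.21% of all genes in these directions. Relative to 9 h, the difference at 24 h was higher for Col3a1 and Col27a1 and lower for Col13a1, beside 1.74% and 1.24% of all genes. Without APAP replicates 1 and 3 of 24 h, the calls of Col4a1, Col4a2, Col3a1 and Col27a1 were lost. Those of Mmp12 (1.94), Mmp13 (0.92), Mmp14 (0.60), Adamts1 (-1.87) and Col13a1 (-0.70 against 3 h and -0.82 against 9 h) passed, and they passed in every fit that left out 1 array. Both shares of members lay within 1 percentage point of those of all genes.

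Other genes of matrix turnover were taken from lists of related function. Among 18 genes of TGF-beta signalling and its matrix-inducing targets, 3, 4, 4 and 2 were higher at the 4 times and none was lower. Of all genes, 1.68%, 2.29%, 2.49% and 2.86% were higher at those times. Ccn1, a matricellular protein, was higher by 1.94, 2.98 and 2.82 on the log2 scale at 3, 6 and 9 h. The related Ccn2 was higher by 0.97 at 3 h, 1.18 at 9 h and 1.76 at 24 h. The inhibitory Smad7 was higher by 0.85 at 6 h and 1.22 at 9 h. Of 9 genes of the plasminogen system, which activates several MMPs, the urokinase receptor Plaur was higher by 0.71 and 0.76 at 6 and 9 h. Median differences of the TGF-beta list were 0.05, 0.07, 0.20 and 0.08 at the 4 times, and of the plasminogen list -0.01, 0.03, -0.02 and 0.21. The medians of all genes at these times stand above, beside those of the members.

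Of 31 matrix glycoproteins and proteoglycans, 4 were higher and 1 lower at 24 h, when 2.86% of all genes were higher and 1.82% lower. Thbs1, a thrombospondin that activates latent TGF-beta, was 8.23 ± 1.46 in APAP mice and 5.70 ± 0.14 in vehicle mice (SD, n = 5 each), and tenascin C (Tnc) was higher by 1.06. Thbs1 was higher at the earlier times too, by 2.54, 1.59 and 2.03 at 3, 6 and 9 h. Of 23 genes that fold, trim and cross-link collagen, 3 were higher at 24 h and none lower. P3h1, a prolyl hydroxylase of procollagen, was higher by 0.96, P4ha2 by 0.76 and Crtap by 0.62, while P4ha1 was higher by 0.75 and 0.89 at 6 and 9 h. Ppib, a prolyl isomerase that helps collagen fold, was lower by -0.61 at 6 h (limma adjusted p = 0.000368). Reck, a membrane-anchored inhibitor of MMPs, was lower at 24 h, at 6.97 ± 0.34 in APAP mice and 7.95 ± 0.33 in vehicle mice (SD, n = 5 each; log2 fold change -0.98, limma adjusted p = 0.00448). It was the only 1 of 12 regulators and sheddases that changed at any of the 4 times. Cd44, a receptor for hyaluronan and collagen, was higher by 0.63 at 9 h and 1.20 at 24 h, the only 1 of 10 collagen receptors to change.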

How the data were processed

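RNA from 45 mouse livers was measured on Affymetrix mouse genome arrays. The log2 values used here are the deposited ones, which the authors made with RMA (background correction, quantile normalization and probe summary; affy 1.64.0, R 3.6.1) on BrainArray probe groups version 24, with 1 value per Entrez gene. Quantile normalization sets all arrays to a common distribution, so changes are relative to the other genes of an array. No further scaling or filter was applied. A further table gave gene symbols only, since its 45 value columns have headings that match no sample label. Groups came from the sample labels.

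The fits covered all 18180 genes and used limma 3.58.1 under R 4.3.3 (lmFit, eBayes, two-sided, Benjamini-Hochberg), as in the study's methods, on the 10 arrays of each comparison, or on 40 arrays for differences between times. The members were the genes whose symbols match the family names, and all 80 matched the RefSeq gene table. The members, gene lists and motifs were chosen with earlier results of these data known. Members named in the text were those called, a fixed set of major collagens, MMPs and TIMPs, and the lowest p at 24 h in other classes. From each list, up to 3 called genes with the largest change were taken per time. Alternatives were other thresholds, treat, 1 model over 45 arrays, trend and robust moderation, and array weights. Further ones were a replicate block (the replicate number as a fixed term of the fit), re-centring, a filter on the dimmest 25% of genes and leaving out arrays. Replicate numbers did not pair mice: correlations of same-numbered mice ran from -0.27 to 0.40 at 3 h. No 2 arrays were identical, and the number of arrays limits the precision.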

Additional observations from a re-analysis of the deposited data

Results flagged for a closer look

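In 198 groups of 5 arrays, over 22 named members, 13 held an array far from the other 4, and chance gives about 1 in 20, or 9.9. Among APAP mice, the high arrays were Adamts4 at 6 h (replicate 4, 6.35), Mmp15 at 6 h (replicate 4, 8.23), Mmp19 at 9 h (replicate 2, 8.76), Mmp14 at 9 h (replicate 1, 9.91) and Timp1 at 24 h (replicate 1, 9.15, with the next at 7.28), and the low array was Timp1 at 3 h (replicate 4, 6.36). Among vehicle mice, the high arrays were Mmp19 at 3 h (replicate 3, 8.41), Col1a1 at 9 h (replicate 5, 7.70), Col1a2 at 9 h (replicate 5, 8.65), Timp3 at 6 h (replicate 3, 8.62) and Timp3 at 9 h (replicate 5, 9.00), and the low array was Mmp2 at 24 h (replicate 3, 7.58). In untreated mice Col13a1 stood out in replicate 4 (8.08).

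The effect of APAP was unequal between times, by the limma test of the difference, for 7 members between 24 h and 3 h: Col4a1 (0.69), Col4a2 (0.79), Mmp13 (1.63), Mmp12 (2.86), Mmp14 (0.82), Adamts1 (-1.51) and Col13a1 (-0.71). Between 24 h and 9 h it differed for Col27a1 (0.66), Col3a1 (1.07) and Col13a1 (-0.83). Leaving out single arrays ended the calls of Col4a1, Col4a2, Col3a1 and Col27a1 in 11, 1, 6 and 9 of 20 fits, and those of the other members in none.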

How the results depend on the processing

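No direction reversed under any alternative that was run. With no minimum fold, 11, 19, 22 and 25 members passed against vehicle at 3, 6, 9 and 24 h. Of all genes, 8.13%, 10.4%, 13.4% and 13.4% were then higher and 14.2%, 17%, 15% and 16.1% lower. For vehicle against untreated, 6, 8, 11 and 18 members passed. The shares of all genes were 8.64%, 12.3%, 12.3% and 11.8% higher and 5.63%, 9.53%, 11.2% and 12.7% lower. For the effect of 24 h minus that of 3 h, 32 members passed, beside 18.6% of all genes higher and 21.8% lower. For 24 h minus 9 h, 5 passed, beside 7.93% higher and 4.72% lower. Tested against 1.5-fold (treat), 1, 1, 2 and 0 members passed against vehicle, 0, 0 and 1 for vehicle at 6, 9 and 24 h, and 1 and 0 for the differences between times. In the limma test against no change, 39 of 80 members had an unadjusted p under 0.05 at 24 h, beside 44.8% of all genes. An adjusted p under 0.01 gave 4 members at 6 h, 2 at 24 h and 1 for 24 h minus 9 h. Array weights gave 3 at 24 h, and re-centring the arrays on their medians gave 1 for vehicle at 3 h. Without APAP replicates 1 and 3 of 24 h, 2 were called there.

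Leaving out single arrays gave 2 to 3, 6 to 7, 6 to 10 and 3 to 7 members against vehicle, 0 to 1, 2 to 4, 3 to 4 and 5 to 5 for vehicle against untreated, and 5 to 10 and 1 to 3 for the differences between times. The arrays behind the widest moves were APAP 9 h replicate 4 (10 members without it), APAP 24 h replicates 1 and 3 (3 without either) and vehicle 6 h replicate 3 (4 for vehicle at 6 h without it). For 24 h minus 9 h, 1 member was left without vehicle 9 h replicate 2, vehicle 24 h replicate 3 or APAP 9 h replicate 5. For vehicle at 3 h, 1 was called without untreated replicate 2 or 3, or vehicle replicate 1, 2, 4 or 5. The cause was not tested.

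Replicate numbers do not pair the mice, since at most 2 of 5 mice correlated best with their own number. With the number as a replicate block, 3, 7, 6 and 4 members were called against vehicle, as Col4a1 and Col4a2 no longer passed at 24 h (limma adjusted p = 0.0548 and 0.0607), and no other call of a named member changed. Their adjusted p reached 0.102 and 0.095 when single arrays were left out. The brightness of the dimmer members limits how well their fold changes are known.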
